A study of Mus musculus with 4 samples.

Results

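Non-cycling matrix fibroblasts from melanoma tumors of the mouse peritoneal cavity are described here, cells rich in messages for secreted connective tissue proteins and poor in messages of cell division. A cell counted as a member when at least 4 of 10 matrix genes were detected, meaning at least 1 unique molecular identifier (UMI, the tag of 1 captured transcript) of each. The 10 matrix genes were *Mfap4*, *Smim41*, *Cilp*, *Lpl*, *Sfrp1*, *Svep1*, *Dpt*, *Lum*, *Col15a1* and *Postn*. A member also had at most 1 of the 6 genes of a *Pi16* panel (*Pi16*, *Opcml*, *Inmt*, *Ace*, *Apod* and *Tek*) and at most 1 of the 8 cell cycle genes *Mki67*, *Top2a*, *Cdk1*, *Birc5*, *Ube2c*, *Prc1*, *Tpx2* and *Ccna2*. Cells were kept with 500 to 6000 detected genes, at most 10% mitochondrial UMIs, and no UMI of *Ptprc*, which encodes the leukocyte antigen CD45, or of *Pax3*, a transcription factor gene of melanocytes. Of 24489 cell barcodes 22691 met the gene and mitochondrial limits, 21791 of those also lacked *Ptprc* and *Pax3*, and 2835 of these kept cells were members, or 13.0% (95% Clopper-Pearson interval 12.6 to 13.5). Members were thus chosen by the measured UMIs of the rule's genes, so the levels of these genes are description and nothing is read from them.

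C57Bl/6 mice with a Cxcl13-cre-tdTomato transgene and a Cre-dependent eGFP allele at Rosa26 (Gt(ROSA)26Sortm2Sho) received 400000 B16-F1-OVA melanoma cells, which express ovalbumin, by the intraperitoneal route, and the tumors were taken 14 days later. By its name in the paper, the strain that carried the eGFP allele was of mixed background. Cells without CD45 and CD31 and with high podoplanin were sorted by their reporters into 4 populations, tdTomato neg eGFP neg, tdTomato+ eGFP neg, tdTomato+ eGFP+ and tdTomato neg eGFP+, and each gave 1 10x Genomics 3′ library. All 4 populations share genotype, tumor model and day, and differ in reporter fluorescence alone as far as the labels say. tdTomato marks cells in which the *Cxcl13* promoter drives the transgene, and eGFP marks cells in which, or in whose ancestors, Cre recombinase has acted, so that both report on *Cxcl13* and neither on the matrix genes. Mice of both sexes were used, and the number of animals, their ages and whether tumors were pooled are not given. With 1 library per population there were no replicates and no test was run, cells of 1 library not being replicates.

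Matrix fibroblasts build the interstitial space of connective tissue, where they secrete fibrillar collagens, proteoglycans and elastic fibre proteins together with the enzymes that cross-link and degrade them. In tumors such cells also release growth factors, cytokines and chemokines that act on cancer cells, vessels and leukocytes. Mesothelial cells, which line the peritoneal cavity and carry keratins and junction proteins, also bear podoplanin, and *Pi16-bearing* fibroblasts are known in many organs as an adventitial population.

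Levels are UMIs summed over the cells of a library, in counts per 1000000 UMIs (CPM), and sets of 4 values follow the order tdTomato neg eGFP neg, tdTomato+ eGFP neg, tdTomato+ eGFP+ and tdTomato neg eGFP+. Intervals are 95%, exact Poisson for CPM and exact Clopper-Pearson for shares of cells, and cover counting error only. A gene was called higher or lower at a log2 ratio of at least 1 in size, with 1 CPM added to each level, among genes with a mean of at least 10 CPM over the groups compared. Where groups were compared within libraries, the ratio is the mean over libraries, and the sign had to be the same in each. Where a group had 0 UMIs in a library, the added 1 CPM sets the ratio there, and the lowest levels given rest on few UMIs.

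The libraries stood apart in depth and in mitochondrial content before any gene was looked at. They held 90259852, 52046896, 10071954 and 63310850 UMIs over 11745, 5299, 984 and 6461 barcodes. The members numbered 2010, 468, 88 and 269 and held 13989290, 4762662, 957005 and 2676255 UMIs, so that 3 counts, taken as the floor of detection, came to 0.214, 0.630, 3.13 and 1.12 CPM. A member of the tdTomato neg eGFP neg library was shallower, with a median of 5746.5 UMIs and 2009.5 genes, than one of the other libraries, with medians of 9184, 10128 and 9007 UMIs and 2884.5, 2943 and 2815 genes. Median mitochondrial shares of members were 0.655%, 0.913%, 0.291% and 0.0888%, lower in both eGFP+ libraries than in both eGFP neg ones. No cell was removed as a doublet, and 57 barcodes occurred in more than 1 library, of which 13 belonged to a member in either and 0 to a member in both.

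Members were most frequent among cells without either reporter, though not clearly so among cells with a Y-linked UMI and no *Xist*. Of kept cells they made up 19.3% (18.6 to 20.1), 9.97% (9.13 to 10.9), 10.1% (8.14 to 12.2) and 4.62% (4.09 to 5.19), lowest in the tdTomato neg eGFP+ library. Because deeper cells detect more genes, the rule was also applied after every kept cell had been thinned to 2500 UMIs, a choice made after the data were seen, which left 18013 of the 21791 kept cells. The shares were then 21.5%, 6.66%, 4.75% and 3.67%, against 21.5%, 10.5%, 11.2% and 5.12% of the same cells as sequenced. Thinning acts on every panel of the rule, so cells over the *Pi16*-panel or cycle limit can become members while other members drop out. The thinned shares are thus net values, and losses and gains were not counted apart. The tdTomato neg eGFP neg share was the highest either way, and the tdTomato+ eGFP+ share moved most in proportion, from 85 to 36 cells. Among kept cells with a Y-linked UMI and no *Xist* the shares were 20.1%, 18.0%, 21.2% and 6.00%. The tdTomato+ eGFP+ share was the highest, but it rested on 42 members and lay little above the tdTomato neg eGFP neg share. The sort set the cells that each library could hold, so these shares describe the sorted populations and not the tumor.

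Levels of the matrix genes of the rule are given as description. Summed over the 10 genes, members reached 3897, 2937, 2416 and 3113 CPM, against 68.1, 98.9, 81.3 and 58.8 CPM in cells with mesothelial markers. *Mfap4*, which encodes a microfibril-associated glycoprotein, was at 335, 89.0, 32.4 and 118 CPM, and *Smim41* at 121, 65.5, 53.3 and 108 CPM. *Cilp*, a cartilage intermediate layer protein gene, was at 60.1, 13.4, 15.7 and 22.8 CPM, *Lpl*, the lipoprotein lipase gene, at 634, 438, 302 and 482 CPM, and *Svep1*, a large cell adhesion protein gene, at 245, 243, 84.6 and 199.9 CPM. The collagen-binding proteoglycan gene *Lum* was at 529, 311, 207 and 292 CPM and the basement membrane collagen gene *Col15a1* at 491, 709.7, 726 and 704 CPM. Summed levels of the *Pi16* panel were 178, 82.5, 18.8 and 45.6 CPM, and those of the 8 cycle genes 40.9, 28.3, 32.4 and 33.6 CPM.

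General fibroblast genes that the rule did not use were detected in members. All 8 of 8 general fibroblast genes were detected in members of every library and summed to 33513, 44831, 45342 and 44204 CPM, with *Col3a1* the most abundant. In mesothelial-marker cells, described below, they summed to 11888, 21723, 22441 and 17346 CPM, 5 of the 8 being called higher in members and 1 lower. The receptor genes *Pdgfra* and *Pdgfrb*, whose products bind platelet-derived growth factors, were at 199, 312, 263 and 210.4 and at 88.2, 128, 109.7 and 149 CPM. *Pdpn*, which encodes the podoplanin of the sort, was at 143, 199.9, 161 and 143 CPM, and *Thy1*, a surface glycoprotein gene of fibroblasts, at 67.1, 52.1, 59.6 and 54.6 CPM. The 4 genes were found in each library, *Pdgfra* and *Pdpn* highest in tdTomato+ eGFP neg members.

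Markers of other cell types were detected in members to different extents. Of 8 melanoma genes 8, 7, 2 and 7 were detected, at a summed 101, 46.0, 48.1 and 53.4 CPM, against 14507, 14023, 15387 and 14450 CPM in melanoma-like cells. Melanoma-like cells had at least 4 of the 8 genes and a *Pax3* UMI, so that they lay outside the kept cells. The most abundant of the 8 in members was *Dct* in the tdTomato neg eGFP neg library and *Mitf* in the others. In the 88 tdTomato+ eGFP+ members *Pmel*, *Mlana*, *Tyr*, *Tyrp1*, *Dct* and *Sox10* were at 0. Of 8 immune genes 7, 7, 6 and 6 were detected, at 15.2, 70.8, 25.1 and 17.2 CPM, led by *Lyz2*, *C1qa*, *Lyz2* and *Cd68* in turn, with *Cd3e* at 0 in every library. Of 8 endothelial genes 6, 6, 2 and 4 were detected, at 5.22, 5.88, 5.22 and 7.47 CPM, with *Cldn5* and *Tie1* at 0 throughout. Of 8 pericyte genes 8, 7, 6 and 7 were detected, at 264.9, 224.9, 316.6 and 357.6 CPM, led by *Ndufa4l2*, and of 6 smooth muscle genes 6, 6, 5 and 6, at 84.9, 200.1, 194.4 and 171.5 CPM, led by *Des*. Of the 10 mesothelial genes used for the mesothelial group 10, 10, 7 and 10 were detected in members, led by *Nkain4*, at 183.7, 96.2, 56.4 and 217.1 CPM, against 3207, 2054, 2603 and 2575 CPM in that group. Of 8 further mesothelial genes 6, 7, 4 and 7 were detected, at 185.7, 220.5, 187.0 and 175.2 CPM, led by *Wt1*, with *Cdh1* at 0. Of 6 Schwann cell genes 5, 5, 2 and 4 were detected, at 15.6, 15.5, 4.18 and 8.22 CPM, and of 6 adipocyte genes 5, 2, 1 and 3, at 5.0, 4.62, 1.04 and 4.11 CPM, with *Lep* at 0. The part of these other cell types in the results was not tested.

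Members differed in how much of the matrix set they carried. The median was 6, 6, 5 and 6 of the 10 genes, 626 members (22.1%) had exactly 4, and 688 (24.3%) had 8 or more. Exactly 4 genes were found in 18.9%, 32.3%, 39.8% and 22.3% of members, and 8 or more in 26.2%, 19.7%, 12.5% and 21.9%; these genes chose the members, so the shares are description. Of all members 1095 (38.6%) had 1 gene of the *Pi16* panel, in 44.7%, 27.4%, 13.6% and 20.8% of the 4 libraries, and 739 had 1 cycle gene. In 114 members (4.02%) there were also at least 4 of the 10 mesothelial genes.

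**Figure D1:**
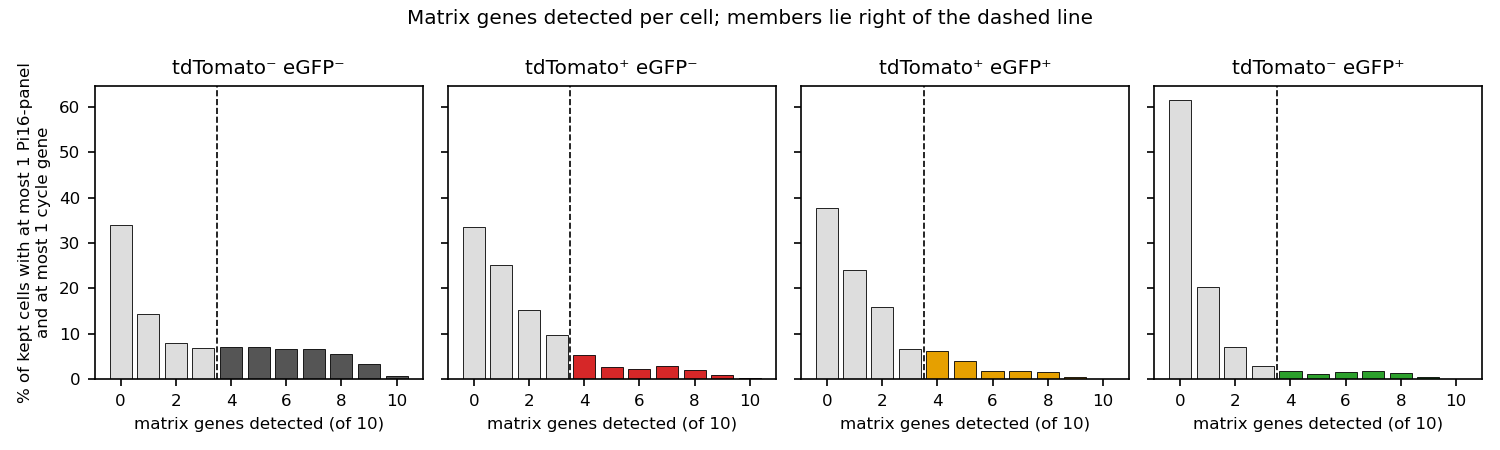
Percent of kept cells with at most 1 *Pi16*-panel and at most 1 cycle gene (vertical axis) by the number of the 10 matrix genes detected (horizontal axis), in each library; coloured bars right of the dashed line are members. Cells with 3 genes just outside the line and with 4 just inside it numbered 379 and 380 (tdTomato neg eGFP neg) and 281 and 151 (tdTomato+ eGFP neg).

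Just outside the threshold lay 790 cells with 3 matrix genes (379, 281, 37 and 93 per library) and just inside it the 626 with 4 (380, 151, 35 and 60). Their median depths were 2135 and 2693.5 UMIs in the tdTomato neg eGFP neg library and 10038 and 10345 UMIs in the tdTomato+ eGFP neg library, so that cells at the edge were shallow in the former and deep in the latter. *Ebf1*, a transcription factor gene of mesenchymal cells, was at 392, 83.9, 103 and 80.2 CPM in cells with 3 matrix genes, 519, 125, 114 and 183 CPM with 4 and 651, 821, 618 and 765 CPM with 8 or more. Outside the tdTomato neg eGFP neg library *Ebf1* was thus several times higher in members with 8 or more matrix genes than at the edge. *Cxcl13*, the B cell chemokine gene whose promoter drives the reporters, was lower in the richest members of each library, at 332, 2139, 1443 and 939 CPM with 3 matrix genes, 937, 3570.1, 1324 and 272 CPM with 4 and 109, 1512, 28.7 and 91.2 CPM with 8 or more. *Trf*, which encodes transferrin, was at 107, 1218, 984 and 1009 CPM in members with 4 matrix genes and 69.4, 205, 172 and 110.3 CPM in those with 8 or more. *Clec3b*, which encodes tetranectin, was at 811, 67.9, 25.4 and 87.0 CPM with 4 and at 289, 308, 137 and 165 CPM with 8 or more, and the proteoglycan gene *Ogn* at 424, 42.2, 22.8 and 42.6 and 371, 281, 79.0 and 153 CPM. For *Clec3b* and *Ogn* the libraries lay far apart among members with 4 matrix genes and closer among members with 8 or more, of which the tdTomato+ eGFP+ library held 11.

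Members were first compared with mesothelial-marker cells of the same libraries, which passed the same sort for podoplanin. Mesothelial-marker cells were kept cells with at least 4 of 10 mesothelial genes, fewer than 4 matrix genes and at most 1 gene of each other panel, and numbered 1231, 262, 66 and 1186. Members carried more message for most of the fibrillar collagen, matricellular, collagen-processing and transcription factor genes tested, and for part of the proteases and their inhibitors. They carried less for the keratin genes *Krt8* and *Krt18* and for 4 of 7 MHC class II genes. Of 7784 genes tested, 582 were called higher in members (7.48%) and 414 lower (5.32%), with a median log2 ratio of 0.00; the gates chose both groups, so the counts are description.

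Among fibrillar collagens 7 of 8 tested genes were called higher and 0 lower, with a median log2 ratio of 1.69. *Col1a1*, a chain of the main collagen of stroma, was at 6002, 8873, 12203 and 9231 CPM in members and 1566, 2470.0, 2782 and 2359.5 CPM in mesothelial-marker cells, a mean log2 ratio of 1.97 (1.84 to 2.13 over libraries). *Col3a1*, the homotrimer chain of type III collagen, was at 17147, 23489.6, 20165 and 22347 and 4462, 9350.1, 9198 and 7714 CPM, a log2 ratio of 1.48 (1.13 to 1.94). Both chains were higher in members of each library, and within members lowest in the tdTomato neg eGFP neg library. The minor fibrillar chain *Col5a3* was at 249, 253, 311 and 358 CPM in members, a log2 ratio of 2.83. Of other collagens 7 of 14 were called higher and 3 lower, median 1.00. *Col4a1*, of the basement membrane network, was at 1035, 1446, 1573 and 1460.2 and 121, 167, 165 and 159.8 CPM, and the microfibril collagen *Col6a3* at 622, 630.3, 689 and 852 and 76.5, 123, 102 and 99.1 CPM, with log2 ratios of 3.15 and 2.80. The network-forming *Col8a1* had the largest collagen ratio, 4.80, while *Col4a5*, *Col4a6* and *Col6a6* were lower, at -1.27, -1.39 and -1.68.

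Matricellular proteins, which sit in the matrix and act on cells, were called higher for 11 of 14 genes and lower for 0, median 1.68. *Tnc*, the tenascin-C gene of remodelling matrix, was at 624, 756, 868 and 1005 CPM in members and 14.5, 41.2, 51.9 and 12.8 CPM in mesothelial-marker cells, a log2 ratio of 4.93 (4.04 to 6.18). *Cthrc1*, a gene of activated fibroblasts, was at 378, 131, 245 and 269.8 and 8.49, 2.75, 15.4 and 3.19 CPM (5.09), and *Sparcl1*, an anti-adhesive glycoprotein gene, at 305, 208, 231 and 306 and 4.01, 0.785, 0 and 0.819 CPM (7.02). *Tnc* rose from the tdTomato neg eGFP neg to the tdTomato neg eGFP+ library in the order given, while *Cthrc1* was highest in the tdTomato neg eGFP neg and lowest in the tdTomato+ eGFP neg library. *Spp1*, the osteopontin gene, was at 1064, 570.1, 1149 and 1307 and 32.8, 17.7, 54.7 and 17.3 CPM. At 2500 UMIs per cell, a UMI of *Spp1* was held by 19.0, 14.8, 23.5 and 29.1% of members, above the 4.49, 3.10, 3.12 and 1.45% of mesothelial-marker cells and below the 47.6, 50.0, 50.0 and 52.8% of melanoma-like cells.

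Collagen-processing enzymes were called higher for 11 of 16 genes, median 1.10, proteases and their inhibitors for 11 of 20 with 1 lower, median 1.41, and elastic fibre genes for 9 of 16 with 2 lower, median 1.08. *Lox*, which cross-links collagen and elastin, was at 504, 481, 385 and 529 CPM in members and 113, 149, 203 and 175 CPM in mesothelial-marker cells (1.58), and the propeptide-cleavage enhancer gene *Pcolce2* had a log2 ratio of 4.27. The gelatinase gene *Mmp2* was at 212, 167, 117 and 158 and 12.5, 3.93, 2.80 and 5.92 CPM (4.64), and *Timp1*, a metalloproteinase inhibitor gene, at 7667, 7945, 10261 and 8231 and 2101, 2002, 3122 and 2165 CPM (1.87). *Mmp2* was highest in tdTomato neg eGFP neg and lowest in tdTomato+ eGFP+ members, and *Timp1* the reverse. The 1 lower gene was the inhibitor gene *Timp3*, at 138, 319, 459.8 and 348 and 919, 696, 913 and 1034 CPM (-1.60). The elastin gene *Eln* was lower too, at 95.9, 75.2, 32.4 and 57.5 and 102, 195, 191 and 187 CPM (-1.41), although in cells with *Xist* and no Y-linked UMI the ratio was 0.04, whereas the fibrillin gene *Fbn2* and the latent TGF-β binding gene *Ltbp2* were higher, at 4.24 and 4.52. Among 12 proteoglycan genes 5 were higher and 0 lower, median 0.87, led by *Aspn* at 190.0, 46.0, 38.7 and 90.4 CPM in members (5.74). The hyaluronan synthase gene *Has2* and *Tnfaip6*, whose product remodels hyaluronan, were higher in members, at 45.0, 55.9, 73.1 and 49.3 and 919, 623, 514 and 557 CPM (3.68 and 2.24), while *Has1* was not called, at 226, 159, 102 and 153 CPM against 187, 220.2, 280.5 and 199.

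Contractile genes were called higher for 4 of 11, with 1 lower and a median of 0.48, and pericyte genes for 2 of 3 tested, with a median of 2.94. The summed pericyte list was nonetheless higher in mesothelial-marker cells of each library, at 383, 334, 415 and 387 CPM, and its part was not tested. Of other markers 1 of 2 melanoma genes was higher (median 0.90), while 5 of 6 further mesothelial genes (-2.54) and the 1 Schwann cell gene tested (-2.68) were lower. Their part was not tested either. *Acta2*, the smooth muscle actin gene of myofibroblasts, was at 864, 722, 972 and 1081 CPM in members and 319, 285, 335 and 345 CPM in mesothelial-marker cells (1.49). *Tagln*, which encodes an actin cross-linking protein, was at 652, 766, 992 and 1047 and 47.4, 51.0, 16.8 and 39.8 CPM (4.53), and *Mylk*, the myosin light chain kinase gene, at 121, 135, 125 and 154 CPM (4.91). *Acta2* was lowest in tdTomato+ eGFP neg and *Tagln* lowest in tdTomato neg eGFP neg members, and both were highest in tdTomato neg eGFP+ members. At 2500 UMIs per cell, 53.4, 50.9, 68.2 and 64.3% of members held an *Acta2* UMI and 36.3, 37.3, 58.8 and 51.2% a *Tagln* UMI, against 10.8, 3.33, 0 and 7.87% and 4.46, 1.67, 0 and 0% of melanoma-like cells. Levels of *Acta2* were 934, 782, 855 and 927 CPM with 4 matrix genes and 758, 369.8, 1049 and 672 CPM with 8 or more, so that the order of the libraries changed with the number of matrix genes. With 8 or more, tdTomato+ eGFP neg and tdTomato neg eGFP+ members lay above mesothelial-marker cells by less than a log2 ratio of 1. Thinning left out 322, 10, 3 and 11 members.

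Secreted signals separated the groups gene by gene. Of 17 growth factor genes 6 were higher in members and 3 lower, with a median of 0.55. *Igf1*, insulin-like growth factor 1, was at 1486, 1279, 716 and 1116 CPM in members and 151, 163, 158 and 162 CPM in mesothelial-marker cells, a log2 ratio of 2.80 (2.17 to 3.29), while *Igf2* had 0 UMIs in members of every library, under the floors given above. *Fgf7* and *Fgf10*, fibroblast growth factors that act on epithelium, were at 59.9, 46.8, 39.7 and 55.7 and 21.4, 23.9, 33.4 and 39.2 CPM in members (4.92 and 4.76), and *Hgf*, hepatocyte growth factor, at 38.5, 30.0, 10.4 and 22.4 CPM (4.14). *Igf1* and *Hgf* were lowest in tdTomato+ eGFP+ members, where *Hgf* rested on 10 UMIs. *Ereg*, the epiregulin gene, was called higher too (1.51), but its ratio was -0.03 in members with 8 or more matrix genes. The BMP-binding genes *Bmper* and *Fst* were higher in members, at 3.29 and 2.83, and *Bmp4* was lower, at -2.16.

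Of 19 chemokine genes 5 were called higher in members (26.3%, against 7.48% of all genes tested) and 1 lower. The median was 0.17, and the 5 had large ratios. *Ccl11*, the eosinophil attractant eotaxin, was at 518, 278, 154 and 394 CPM in members and 8.26, 0.785, 1.40 and 1.55 CPM in mesothelial-marker cells (6.60). *Cxcl12*, which holds CXCR4-bearing cells in stroma, was at 1309, 1728, 1220.5 and 1117 and 19.8, 47.5, 94.0 and 25.7 CPM (5.05), and *Cxcl9*, an interferon-induced ligand of CXCR3, at 2015, 1404, 1662 and 2156 and 94.4, 33.8, 14.0 and 49.7 CPM (5.48). *Ccl19*, which draws CCR7-bearing lymphocytes and dendritic cells, was at 194, 108, 64.8 and 89.3 CPM (4.29), and *Cxcl14* at 122, 164, 207 and 198 CPM (3.00). *Ccl11* and *Ccl19* were highest in tdTomato neg eGFP neg members, *Cxcl12* in tdTomato+ eGFP neg members, and *Cxcl9* was lowest in tdTomato+ eGFP neg members. A *Cxcl12* UMI was found in 66.5, 80.3, 63.5 and 66.7% of thinned members (77.3, 92.1, 81.8 and 84.0% as sequenced) and in 9.29, 5.0, 7.14 and 2.25% of thinned melanoma-like cells, whose median depths as sequenced were 20399, 19520, 19794 and 21310 UMIs. The monocyte attractants *Ccl2* and *Ccl7*, at 2701, 3567, 3229.9 and 3555 and 1655, 1566, 1257 and 1407 CPM in members, were not called.

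Among 9 cytokine genes 4 were higher in members and 2 lower, median 1.10. *Il6* was at 256, 273, 184 and 253 CPM, the alarmin gene *Il33* at 524, 761, 655 and 586 CPM and the macrophage growth factor gene *Csf1* at 203, 270.4, 240.3 and 239.5 CPM, with log2 ratios of 1.45, 1.93 and 1.13. None of these 3 differed by a log2 ratio of 1 between the libraries compared here. The pentraxin gene *Ptx3*, a soluble pattern receptor, was at 402, 335, 59.6 and 295 CPM in members and 4.13, 1.57, 1.40 and 2.19 CPM in mesothelial-marker cells (6.13), and the endothelin receptor gene *Ednra* at 43.7, 64.7, 67.9 and 70.2 and 0.688, 0.785, 0 and 0.728 CPM (5.35).

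Part of the MHC class II and interferon-stimulated genes were lower in members than in mesothelial-marker cells. Of 7 MHC class II genes 4 were called lower and 0 higher, median -1.05, and of 24 interferon-stimulated genes 7 were lower and 0 higher, median -0.66, but of 18 MHC class I genes 1 was lower and 0 higher, median -0.55. *Cd74*, the invariant chain of MHC class II, was at 590.2, 1044, 1190.2 and 867 CPM in members and 3336, 2866, 3603 and 2573 CPM in mesothelial-marker cells (-1.78). *H2-Aa*, a class II α chain gene, was at 127, 280.1, 254 and 193 and 568, 622, 654 and 487 CPM (-1.50), and *Gbp2*, a guanylate-binding protein gene induced by interferon-γ, at 159.6, 402, 344 and 268 and 859, 868, 858 and 760.1 CPM (-1.59). In every library the mesothelial-marker cells held more, and within members all 3 genes were lowest in the tdTomato neg eGFP neg library. Complement genes had 1 higher and 3 lower of 11, with a median of -0.47.

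Transcription factor genes were called higher in members for 15 of 22 and lower for 2, with a median of 1.34. *Ebf1* was at 580.4, 444, 326 and 628 CPM in members and 6.42, 2.75, 0 and 2.28 CPM in mesothelial-marker cells, a log2 ratio of 7.28 (6.29 to 8.35). *Tcf21*, a factor of visceral mesenchyme, was at 56.3, 25.4, 9.40 and 23.9 and 2.41, 0, 0 and 0.182 CPM (4.14), and the limb and stromal homeobox gene *Prrx1* at 191, 273, 292 and 272 and 46.2, 153, 140.2 and 112 CPM (1.30). *Ebf1* was high in members of all 4 libraries, *Tcf21* highest in the tdTomato neg eGFP neg library, and *Prrx1* lowest there. At 2500 UMIs, 58.8, 47.6, 40.0 and 60.5% of members held an *Ebf1* UMI (78.8, 64.1, 54.5 and 77.7% as sequenced), against 4.83, 1.67, 0 and 1.12% of melanoma-like cells. *Gata6* and *Osr1*, factors of the coelomic lining, were lower in members, at 57.1, 113, 126 and 77 and 77.8, 55.2, 43.9 and 43.7 CPM (-1.17 and -1.12). Of 26 adhesion and junction genes 6 were higher and 10 lower, median -0.48: the laminin gene *Lama2* was at 108, 66.1, 43.9 and 91.2 CPM in members (5.31), and the tight junction genes *Cxadr* and *Cldn3* were lower (-3.23 and -4.54), with no *Cldn3* UMI in tdTomato+ eGFP+ members. The keratin genes *Krt8* and *Krt18* were lower too, at -4.64 and -4.46.

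**Figure D2:**
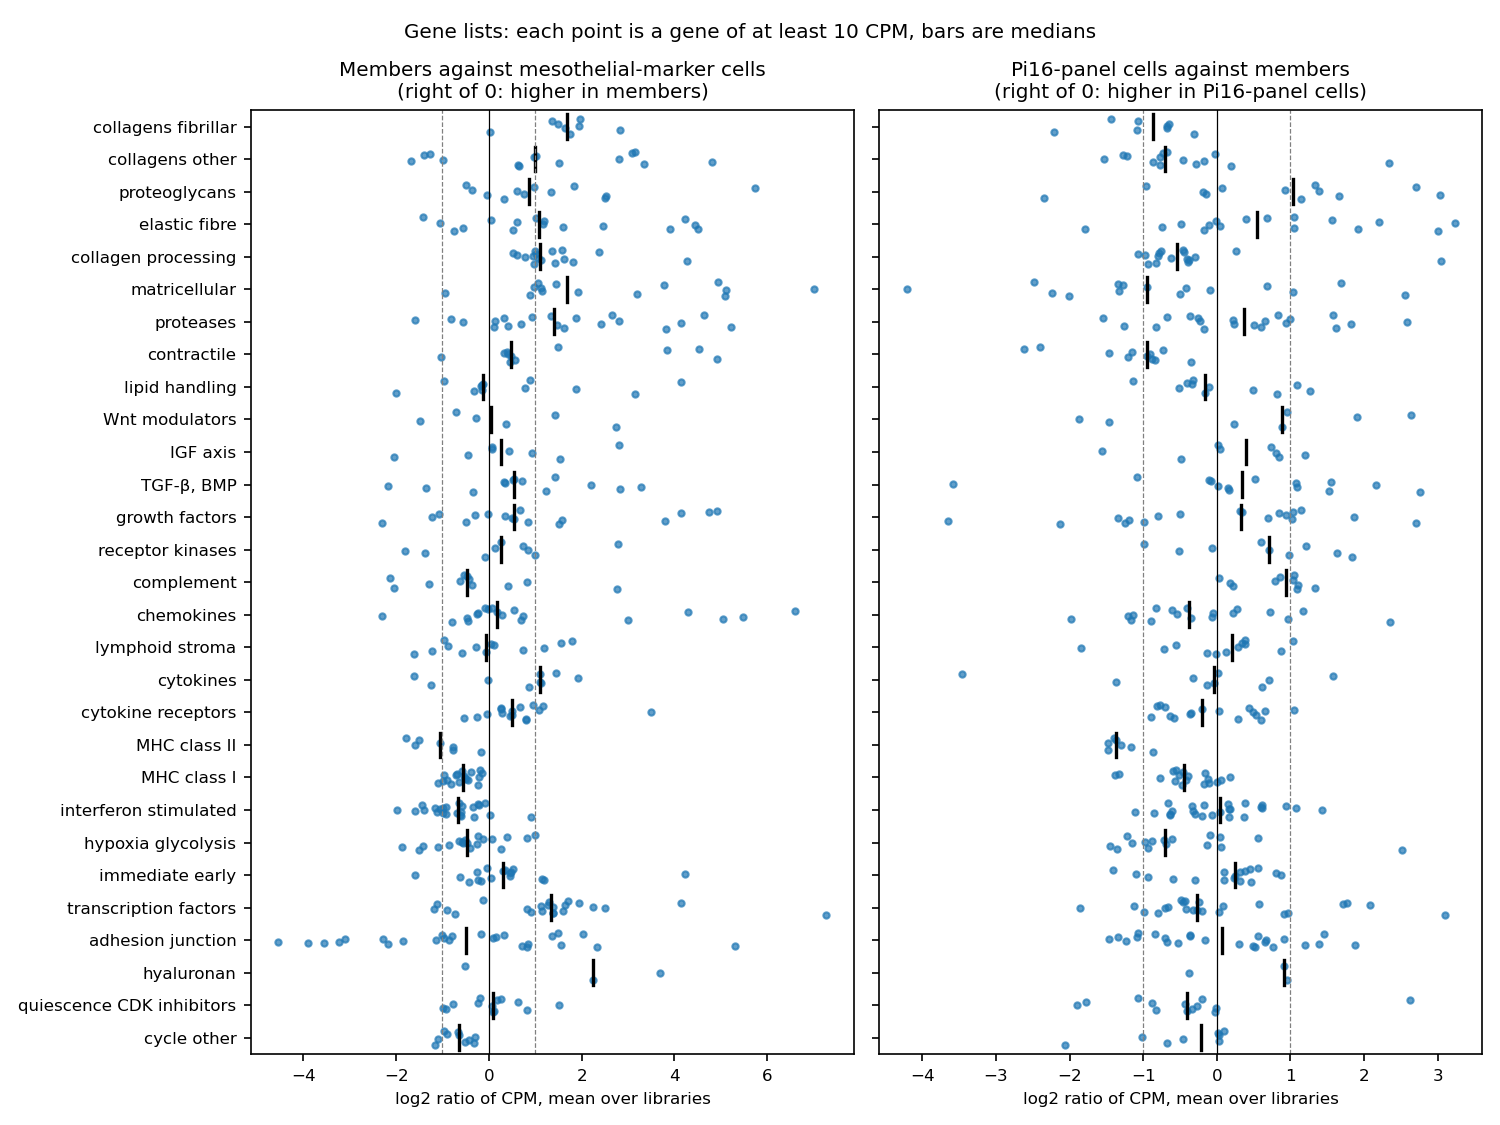
Mean log2 ratio over libraries of each tested gene (points) and the median (bars) of the gene lists named on the left, for members against mesothelial-marker cells (left panel, right of 0 is higher in members) and *Pi16*-panel cells against members (right panel, right of 0 is higher in *Pi16*-panel cells). Fibrillar collagens lie at a median of 1.69 in the left panel and -0.87 in the right one.

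Cycling matrix cells, which met the same rule but had at least 2 of the 8 cycle genes, differed from members in few genes of the lists outside the cell cycle, none of which had more than 2 calls. They numbered 1135, 367, 61 and 200 and were deeper, with median UMIs of 11014, 13810, 14553 and 14213. Of 7906 genes 291 were higher in cycling cells (3.68%) and 27 lower (0.342%), with a median of 0.02; the cycle genes of the rule chose the groups. All 20 of 20 further cycle genes were higher, with a median of 2.72, among them *Stmn1*, which regulates microtubules, at 39.4, 24.6, 16.7 and 32.9 CPM in members and 329.7, 307, 265 and 288 CPM in cycling cells (3.41). Members kept more of a few genes: *Slfn5*, an interferon-regulated gene, was at 138, 126, 97.2 and 104 CPM against 50.6, 40.4, 21.6 and 42.2 CPM in cycling cells (-1.61), and *Clec3b* at 399, 183, 61.7 and 114 against 168, 86.7, 16.5 and 47.0 CPM (-1.35). *Gas6*, a growth arrest-specific ligand of the AXL receptor, was at 36.7, 80.4, 67.9 and 50.4 CPM in members (-1.40), and *G0s2*, a lipolysis inhibitor first found at the switch out of rest, had a log2 ratio of -1.59. Each of these genes was lower in cycling cells of all 4 libraries. None of the 16 collagen-processing and 8 fibrillar collagen genes tested was called, with list medians of -0.11 and -0.12, and the 14 matricellular and 24 interferon-stimulated genes tested also had 0 calls, with medians of -0.02 and -0.01. Lower in cycling cells were 2 of 13 proteoglycan genes (15.4%), 2 of 18 chemokine genes (11.1%) and 1 of 8 Wnt genes (12.5%), against 0.342% of all genes. So was 1 gene each of the lipid-handling, hypoxia and cycle control lists.

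The comparison with *Pi16*-panel cells sets members beside the fibroblasts that the rule left out for carrying 2 or more panel genes. Those cells numbered 1303, 77, 2 and 54, so that the tdTomato+ eGFP+ library gave no ratio, and their median depths of 2684, 4914 and 3018 UMIs in the other 3 libraries were lower than those of members. Members held more message for part of the fibrillar collagens, matricellular proteins, contractile proteins and MHC class II. *Pi16*-panel cells held more for part of the proteoglycan, elastic fibre and complement genes. Of 7985 genes 416 were higher in *Pi16*-panel cells (5.21%) and 263 lower (3.29%), with a median of 0.05; values below follow the order tdTomato neg eGFP neg, tdTomato+ eGFP neg and tdTomato neg eGFP+. With the tdTomato neg eGFP neg library left out the lower genes numbered 470, a setting added after the data were seen. Among cells with *Xist* and no Y-linked UMI, enough in the tdTomato neg eGFP neg library alone, they numbered 163, with no other library to check the sign. Of cells with only *Xist* or only Y-linked UMIs, those with *Xist* made up 92.9%, 90.6% and 93.8% of *Pi16*-panel cells and 58.1%, 42.3% and 38.1% of members. Sex or animal was thus unbalanced between the groups in each library, and its part was not tested.

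Fibrillar collagens were lower in *Pi16*-panel cells for 4 of 8 genes and higher for 0 (median -0.87), contractile genes for 5 of 11 and 0 (-0.95), and matricellular genes for 6 of 15, with 2 higher (-0.95). Of other collagens 3 of 14 were lower and 1 higher (-0.71). Pericyte genes were lower for 3 of 3 (-2.20) and smooth muscle genes for 2 of 2 (-1.27), and their part in the contractile genes was not tested. The 1 Schwann cell gene tested was higher (1.26), as was 1 of 4 further mesothelial genes (median 0.24), and their part was not tested. *Col1a1* was at 6002, 8873 and 9231 CPM in members and 2357, 3843 and 2736 CPM in *Pi16*-panel cells (-1.44), *Acta2* at 864, 722 and 1081 and 208, 142 and 151 CPM (-2.40), and *Tnc* at 624, 756 and 1005 and 169, 96.1 and 164 CPM (-2.48). *Inhba*, the activin A chain gene, was at 109, 136 and 213 CPM in members and 23.7, 4.37 and 13.0 CPM in *Pi16*-panel cells (-3.59), and *Tagln* at 652, 766 and 1047 and 167, 139.8 and 95.1 CPM (-2.62). In each of the 3 libraries members were above *Pi16*-panel cells for all 5 genes, and each library had the imbalance in *Xist* given above. MHC class II was lower in *Pi16*-panel cells for 6 of 7 genes, median -1.37. *Cd74* was at 380.4, 247 and 307 CPM in them, below members, which themselves lay below mesothelial-marker cells. Members with 8 or more matrix genes held 395, 665 and 689 CPM, little above *Pi16*-panel cells in the tdTomato neg eGFP neg library.

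Proteoglycans were higher in *Pi16*-panel cells for 6 of 12 genes and lower for 1 (median 1.03), elastic fibre genes for 7 of 16 and 1 (0.54), and complement genes for 5 of 10 and 0 (0.95). *Clec3b* was at 399, 183 and 114 CPM in members and 2037, 1317 and 2269 CPM in *Pi16*-panel cells (3.17). The linker genes *Efemp1* and *Ltbp4* had log2 ratios of 3.23 and 3.01, *Lama2* of 1.88, and the endothelin gene *Edn1* of 4.58. *Ebf1* was not called, at 580.4, 444 and 628 CPM in members and 1090.5, 753 and 1323 CPM in *Pi16*-panel cells (0.91), while its paralogue *Ebf2* was higher in the latter (3.10). Both kinds of fibroblast thus held *Ebf1* far above mesothelial-marker cells.

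Members of the sorted populations were next compared with each other, to ask what differs with the reporters among cells that met the same rule. Their makeup was not the same, exactly 4 matrix genes being found in 18.9%, 32.3%, 39.8% and 22.3% of them. Likewise 1 gene of the *Pi16* panel was found in 44.7%, 27.4%, 13.6% and 20.8% of them. The part of makeup in the differences below was not tested, and members with no panel gene were not compared alone. In tdTomato+ eGFP neg members *Cxcl13*, transferrin, fibronectin and *Ccnd1* were above tdTomato neg eGFP neg members. So were 4 of 7 MHC class II, 3 of 18 MHC class I and 4 of 17 growth factor genes. *Aspn*, *Cthrc1* and *Ogn* were below, and several of all these differences were not called in members with 8 or more matrix genes. Of 7774 genes 241 were higher (3.10%) and 58 lower (0.746%), with a median log2 ratio of 0.12. *Cxcl13* was at 279.6 (271 to 289), 2448 (2404 to 2493), 653 (603 to 706) and 118 (106 to 132) CPM, a log2 ratio of 3.13 (interval 3.08 to 3.18) between tdTomato+ eGFP neg and tdTomato neg eGFP neg members. It was far higher in the tdTomato+ eGFP neg library than in the others, and so it was in mesothelial-marker cells, at 135, 1500.4, 290.3 and 134 CPM, and in *Pi16*-panel cells, at 357, 4374 and 393 CPM in the 3 libraries that had them. *Trf* was at 109 (104 to 115), 810.1 (785 to 836), 812 (756 to 871) and 413 (389 to 438) CPM (2.88), lowest in tdTomato neg eGFP neg members and alike in both tdTomato+ libraries, and in mesothelial-marker cells at 150.1, 1406, 1614 and 609 CPM. *Fn1*, the fibronectin gene, was at 1805, 4059.9, 3748 and 2817 CPM (1.17, and 0.83 with 8 or more matrix genes), and *Ccnd1*, the cyclin D1 gene, at 25.2 (22.6 to 27.9), 109.8 (101 to 119.6), 93.0 (74.7 to 114) and 96.4 (85.0 to 109) CPM (2.08). Both were lowest in tdTomato neg eGFP neg members.

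**Figure D3:**
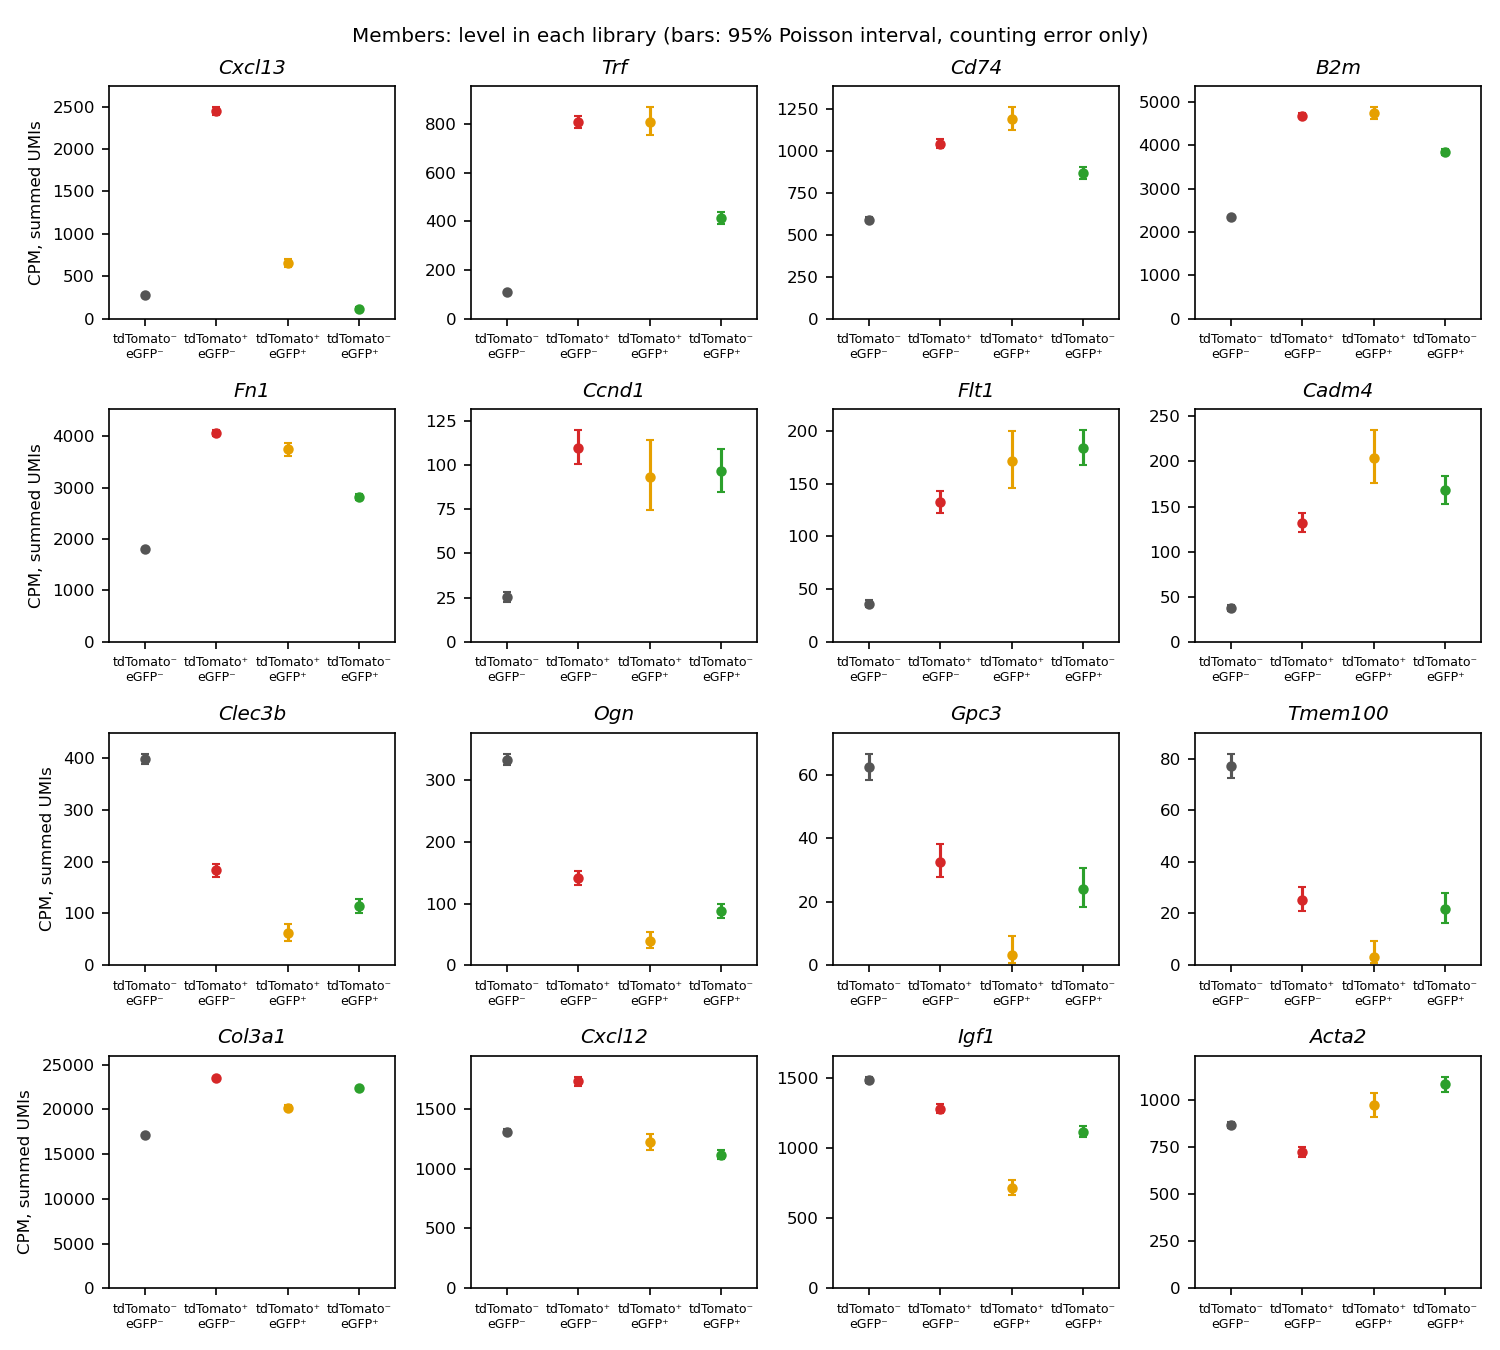
Level in CPM (vertical axes, from 0) of 16 genes in members of the 4 libraries, with 95% Poisson intervals that cover counting error only. *Cxcl13* stands highest in tdTomato+ eGFP neg members at 2448 CPM, while *Clec3b*, *Ogn*, *Gpc3* and *Tmem100* are highest in tdTomato neg eGFP neg members.

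MHC class II genes were higher in tdTomato+ eGFP neg members for 4 of 7 and lower for 0, median 1.13, and MHC class I genes for 3 of 18 and 0, median 0.70. *H2-Ab1*, a class II β chain gene, was at 175, 399, 420.1 and 326 CPM (1.19) and *B2m*, the class I light chain gene, at 2343, 4689, 4743 and 3840.4 CPM (1.00). Both were lowest in tdTomato neg eGFP neg members, and *B2m* in members with 8 or more matrix genes was at 2215, 3582, 3880.2 and 3529 CPM. Among 14 genes of rest and cycle control, which do not act alike, 6 were higher and 0 lower (median 0.66): *Cdkn1a*, a p53 target that stops the cycle, was at 78.0, 181, 215 and 145 CPM (1.20), beside the cycle-promoting *Ccnd1*. *Cdkn2a*, another inhibitor gene, was at 11.9, 36.7, 49.1 and 34.4 CPM (1.54), but its ratio turned to -1.13 in members with 8 or more matrix genes. Growth factors were higher for 4 of 17 genes and lower for 0 (median 0.01), among them *Ereg* at 57.9, 276, 372 and 186 CPM (2.23), and the axon guidance gene *Sema3a*, at 10.3, 92.6, 80.5 and 33.6 CPM (3.05). The Wnt-binding gene *Frzb* was at 2.72, 31.9, 24.0 and 9.72 CPM (3.15), and the collagen genes *Col24a1* and *Col6a5* at 70.0, 303, 345 and 187 and 9.65, 81.3, 108 and 32.9 CPM (2.10 and 2.95). With 8 or more matrix genes *Cdkn1a* fell to 0.71, *B2m* to 0.69, *Ereg* to 0.69, *Frzb* to 0.96 and *Col24a1* to 0.55, below the call, as were *Cdkn1a* (0.86) and *B2m* (0.92) in cells with *Xist* and no Y-linked UMI and *H2-Ab1* (0.98) in those with the reverse. All of these were lowest in tdTomato neg eGFP neg members, and *Col24a1* was low in mesothelial-marker cells of that library too, at 99.1, 287, 196 and 233 CPM.

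Lower in tdTomato+ eGFP neg members were 3 of 16 matricellular genes, with 3 higher, and 2 of 12 proteoglycan genes. *Cthrc1*, given above, had a log2 ratio of -1.53 (interval -1.66 to -1.41). *Aspn*, a collagen-binding proteoglycan gene, was at 190.0, 46.0, 38.7 and 90.4 CPM (-2.02), and *Ogn* at 334, 141, 39.7 and 87.1 CPM (-1.23). The microfibril gene *Mfap5* was at 1670.1, 775, 604 and 1207 CPM (-1.11), and the prostaglandin D synthase gene *Ptgds* at 36.3, 4.41, 4.18 and 7.10 CPM (-2.79). Each was highest in tdTomato neg eGFP neg members, but with 8 or more matrix genes the ratios of *Cthrc1*, *Aspn*, *Ogn* and *Mfap5* were -0.89, -0.99, -0.40 and -0.23, and that of *Clec3b* turned from -1.12 to 0.09. *Ptgds* was highest in that library among mesothelial-marker cells too, at 52.8, 3.14, 2.80 and 8.47 CPM. Of its UMIs in tdTomato neg eGFP neg members 47.2% lay in 5 cells. Melanoma genes moved with this comparison, 3 of 4 tested being lower: *Dct* was at 28.0, 2.10, 0 and 6.35 CPM in members and 34.8, 4.32, 1.40 and 5.92 CPM in mesothelial-marker cells, whereas the immune genes *Lyz2* and *C1qa* were higher (1.97 and 2.36, but -0.02 and 0.43 with 8 or more matrix genes). Of smooth muscle genes 1 of 2 was higher (median 0.91) and of further mesothelial genes 1 of 5 lower (-0.23), and the part of these markers in the other differences was not tested. With 3 matrix genes enough for membership, 123 genes were lower, and among members with *Xist* and no Y-linked UMI 131. *Timp3*, *Col4a6* and *Tcf21* were called (1.21, 1.66 and -1.12), but in members with 8 or more matrix genes, a setting added after the data were seen, their ratios were -0.17, -0.18 and 0.28.

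The 2 comparisons of eGFP+ with eGFP neg members, at tdTomato neg and at tdTomato+, rest on different libraries. The first shares the tdTomato neg eGFP neg library and the second the tdTomato+ eGFP neg library with the comparison just described. In both, *Clec3b*, *Ogn*, *Gpc3*, *Col14a1*, *Tcf21* and *Cxcl13* were lower in eGFP+ members, and at tdTomato neg *Trf*, *Ccnd1*, *Flt1* and *Cadm4* were higher. At tdTomato neg, of 7665 genes 103 were higher (1.34%) and 73 lower (0.952%), with a median of 0.07. At tdTomato+, of 7730 genes 20 were higher (0.259%) and 215 lower (2.78%), with a median of -0.08, from 88 tdTomato+ eGFP+ members. Called in both were 37 genes, 33 in the same direction and 4 in opposite ones, and 10 of the 33 were mitochondrial genes, whose share of UMIs was lower in both eGFP+ libraries.

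*Clec3b* was at 399 (388 to 409), 183 (171 to 196), 61.7 (46.9 to 79.5) and 114 (101 to 127) CPM, with log2 ratios of -1.80 at tdTomato neg and -1.56 at tdTomato+. *Ogn*, at the levels given above, had ratios of -1.93 and -1.81, and *Col14a1*, a fibril-associated collagen gene, was at 243, 168, 75.2 and 116 CPM (-1.06 and -1.15). *Gpc3*, the glypican-3 gene, was at 62.3, 32.5, 3.13 and 23.9 CPM, where the tdTomato+ eGFP+ value is 3 UMIs with an interval of 0.646 to 9.16 CPM (-1.35, and -3.02 with an interval of -5.67 to -1.80). For all 4 genes the tdTomato neg eGFP neg level was the highest and the tdTomato+ eGFP+ level the lowest. At tdTomato neg, with 8 or more matrix genes, the ratios of *Clec3b*, *Col14a1* and *Gpc3* fell to -0.81, -0.62 and -0.73, below the call, while *Ogn* was at -1.27. Among *Xist-bearing* cells without a Y-linked UMI the 3 were at -0.87, -0.54 and -0.53, and *Pcsk5*, described next, at -0.73, below the call too. These genes were also higher in *Pi16*-panel cells than in members. Members with 1 gene of that panel were most frequent in the tdTomato neg eGFP neg library and least frequent in the tdTomato+ eGFP+ library, and their part was not tested. *Tmem100* and *Pcsk5* were at 77.2, 25.2, 3.13 and 21.7 and 107, 74.1, 9.40 and 38.1 CPM, the tdTomato+ eGFP+ value of *Tmem100* being 3 UMIs (0.646 to 9.16), and *Fxyd6*, an ion pump regulator gene, at 35.3, 20.2, 0 and 6.35 CPM, its 0 in tdTomato+ eGFP+ members lying under a floor of 3.13 CPM. *Cxcl13* had ratios of -1.23 (interval -1.41 to -1.07) and -1.90 (interval -2.02 to -1.79), but the first became 0.17 when 3 matrix genes sufficed for membership and -0.26 with 8 or more, where the second was -5.67. In cells with *Xist* alone or Y-linked UMIs alone the first *Cxcl13* ratio was -0.99 and -0.76. Of the *Cxcl13* UMIs of members 35.3%, 24.9%, 92.3% and 63.1% lay in 5 cells per library, a spread that the intervals do not cover. *Tcf21* had ratios of -1.20 and -1.34, the first 0.03 in members with 8 or more matrix genes, and in cells with a Y-linked UMI and no *Xist* they were -0.85 and -0.94.

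Higher in tdTomato neg eGFP+ than in tdTomato neg eGFP neg members were 4 of 18 growth factor genes and 0 lower, with a median of 0.12. *Flt1*, a receptor gene for vascular endothelial growth factor, was at 36.0 (32.9 to 39.2), 132 (122 to 143), 171 (146 to 199.7) and 183 (168 to 200.4) CPM (2.32), and *Cadm4* at 37.2, 132, 204 and 168 CPM (2.15). Both were lowest in tdTomato neg eGFP neg members and higher in the other 3 libraries. *Ccnd1* and *Trf*, given above, had ratios of 1.90 and 1.91, *Ereg* of 1.67 and *Igfbp3*, an IGF-binding protein gene, of 1.75, at 47.1, 109.8, 75.2 and 161 CPM. *Il11*, a cytokine gene of fibrosis, was at 12.4, 5.88, 1.04 and 63.5 CPM (2.26), the tdTomato+ eGFP+ value being 1 UMI (0.0265 to 5.82), a ratio that turned to -0.29 with 5 matrix genes and -0.27 in members with a Y-linked UMI and no *Xist*. *Sema3a* (1.62) turned to -0.46 in members with 8 or more matrix genes, where *Trf* fell to 0.66, *Ereg* to 0.28 and *Il11* to 0.40, and among cells with *Xist* and no Y-linked UMI *Sema3a* and *Il11* fell to 0.56 and 0.29. Lower were 3 of 16 elastic fibre genes (*Fbln5*, *Efemp1* and *Ltbp4*, at -1.26, -1.02 and -1.20), 3 of 13 proteoglycan genes and 3 of 20 chemokine genes, among them *Ccl19* (-1.11). With 8 or more matrix genes *Efemp1*, *Ltbp4* and *Ccl19* were at -0.26, -0.42 and -0.30, below the call, as were *Efemp1* (-0.73) and *Ltbp4* (-0.25) in cells with *Xist* and no Y-linked UMI and *Efemp1* (-0.45) and *Ccl19* (-0.54) in those with the reverse. *Gstp1*, a glutathione transferase gene, was at 86.2, 49.6, 14.6 and 20.2 CPM in members and 216, 111, 74.3 and 44.0 CPM in mesothelial-marker cells (-2.04). It was highest in the tdTomato neg eGFP neg library and low in both eGFP+ libraries in either kind of cell. Melanoma genes were lower here too, 3 of 4 tested (median -2.05), and 2 of 6 further mesothelial genes (0.03), while 1 of 3 pericyte genes (0.64) and 1 of 2 smooth muscle genes (0.91) were higher, and their part was not tested. The count of higher genes was 193 among members with a Y-linked UMI and no *Xist* and 161 among those with *Xist* and no Y-linked UMI.

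In tdTomato+ eGFP+ against tdTomato+ eGFP neg members 3 of 16 elastic fibre genes were lower and 0 higher, as were 3 of 19 chemokine, 3 of 24 transcription factor and 3 of 15 growth factor genes. *Ptx3*, given above, had a ratio of -2.47, *Adamts5*, an aggrecan-degrading protease gene, was at 172, 137, 36.6 and 86.7 CPM (-1.88), and the CXCL12-scavenging receptor gene *Ackr3* at 89.8, 89.0, 25.1 and 53.1 CPM (-1.79). Each was lowest in tdTomato+ eGFP+ members, where 59.6% of the 57 *Ptx3* UMIs lay in 5 cells. Of other cell types' markers 1 of 2 immune genes tested was lower (median -1.54) and 1 of 3 pericyte genes higher (0.48), and their part was not tested. Among the 20 higher genes was *Spp1* (1.01, interval 0.91 to 1.11), the 1 higher gene when a mean of at least 50 CPM was asked, but its ratio was 0.44 in cells with a Y-linked UMI and no *Xist*. Most *Spp1* UMIs lay in few members, as described below, a spread that the interval does not cover. The counts moved most of all comparisons with the choice of members, to 571 higher and 1256 lower with 8 or more matrix genes, of which the tdTomato+ eGFP+ library had 11 members, and to 828 lower among members with *Xist* and no Y-linked UMI, 22 in that library.

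Because mice of both sexes were used, members were also split by *Xist*, expressed from the inactive X chromosome, and 4 Y-linked genes, a comparison added after the data were seen. Of the 2835 members 774 held *Xist* and no Y-linked UMI (*Xist*-only), 730 a Y-linked UMI and no *Xist* (Y-only), 52 both and 1279 neither. *Xist*-only cells made up 58.1% (54.9 to 61.3), 42.3% (36.8 to 47.9), 34.4% (22.9 to 47.3) and 38.1% (30.7 to 45.9) of members marked by 1 of the 2, highest in the tdTomato neg eGFP neg library. The share was 51.5% over all members, 51.6% in cycling matrix cells, 32.1% in mesothelial-marker cells and 92.6% in *Pi16*-panel cells. The sexes of the animals behind each library are not stated, so sex and animal cannot be told apart.

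Within tdTomato neg eGFP neg, tdTomato+ eGFP neg and tdTomato neg eGFP+ members, the libraries with at least 50 cells on each side, 76 of 7830 genes were higher in *Xist*-only members (0.971%) and 42 lower (0.536%), with a median of 0.00; without the tdTomato neg eGFP neg library 76 were lower. *Cxcl5*, a neutrophil attractant, was at 809, 1291 and 2006 CPM in *Xist*-only and 235, 306 and 431 CPM in Y-only members (2.02), and the adhesion gene *Chl1* at 1129.8, 1329 and 1046 and 464, 731 and 383 CPM (1.20). *Ccn2*, a connective tissue growth factor gene, went the other way, at 66.0, 66.8 and 84.3 and 224, 255 and 339 CPM (-1.89), as did *Aspn*, at 122, 6.36 and 22.6 and 298, 73.5 and 129 CPM (-2.36). Each of the 4 genes kept its direction in the 3 libraries. Makeup differed between the sides as well: 1 gene of the *Pi16* panel was found in 51.7, 31.4 and 28.1% of *Xist*-only and 35.5, 21.9 and 17.3% of Y-only members. Median matrix genes were 6, 5 and 6 against 7, 6 and 6, and median depths 7086, 10368 and 9513 against 9067, 10032 and 11200.5 UMIs. The part of makeup in these differences was not tested. Of 3 pericyte genes 1 was lower in *Xist*-only members (median -0.70), and its part was not tested. *Flt1* was at 10.3, 54.0 and 28.6 and 77.3, 191 and 285 CPM (-2.62), and *Col6a5* at 4.25, 12.7 and 0 and 18.1, 153 and 62.6 CPM. For *Col6a5*, high in tdTomato+ eGFP neg and tdTomato neg eGFP+ members above, the level was higher in Y-only cells of each library, and among *Xist*-only cells its ratio of tdTomato neg eGFP+ to tdTomato neg eGFP neg members turned to -2.39 and that of *Pi16*-panel cells to members from -1.53 to 0.14.

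**Figure D4:**
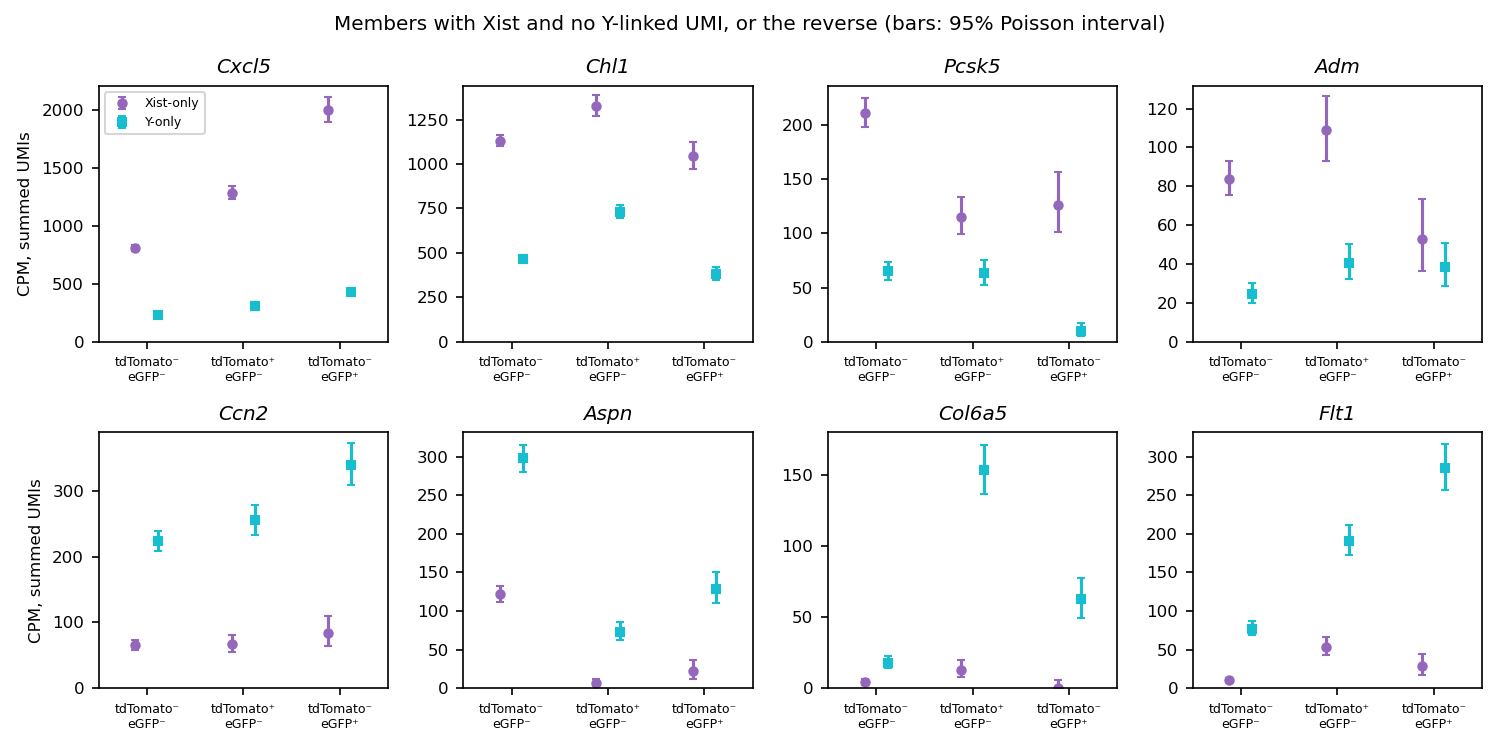
Level in CPM (vertical axes, from 0) of 8 genes in *Xist*-only (circles) and Y-only (squares) members of 3 libraries, with 95% Poisson intervals. *Cxcl5* is higher in *Xist*-only members of each library, and *Ccn2* in Y-only members of each.

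Some secreted products varied widely from member to member. After thinning, the variance over the mean across cells was taken for genes with a mean of at least 0.1 UMI per cell, 3279, 3642, 3492 and 3535 genes, with medians of 1.08, 1.09, 1.10 and 1.10, near the value of 1 that random sampling gives. A value of 2 or more was reached by 6.13%, 6.12%, 6.16% and 6.62% of these genes. *Spp1* stood at 61.4, 22.6, 44.3 and 48.4, with the top 10% of members holding 94.3, 96.0, 91.2 and 85.5% of its UMIs, and *Cxcl13* at 24.4, 48.4, 96.0 and 16.6. *Cxcl9* was at 14.1, 11.4, 11.5 and 10.1 (51.8, 49.8, 52.3 and 42.8% in the top 10%) and *Timp1* at 16.8, 16.3, 18.6 and 13.0. *Col3a1* was at 13.5, 13.6, 9.48 and 14.7, but 21.6, 19.8, 19.8 and 20.2% of its UMIs were in the top 10%, so that it was spread over members far more evenly than *Spp1* or *Cxcl9*. A *Cxcl13* UMI was found in 10.9, 47.6, 9.41 and 8.53% of thinned members (15.5, 63.2, 26.1 and 13.8% as sequenced), against 3.72, 11.7, 7.14 and 1.12% of thinned melanoma-like cells, above them in each library, though by little in the tdTomato+ eGFP+ library, which had 14 melanoma-like cells.

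Outside the tdTomato+ eGFP+ library most immunoglobulin UMIs came from 4 members per library. They numbered 1299, 8941, 11 and 8360, or 92.9, 1877, 11.5 and 3124 CPM, and 91.5%, 99.1%, 45.5% and 99.8% of them lay in 4 cells per library. Without the 4, 4, 0 and 4 members with 10 or more such UMIs the levels were 7.87, 17, 11.5 and 6.07 CPM.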

How the data were processed

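The authors deposited UMI counts per gene and cell barcode for 4 libraries of 10x 3′ v3.1 chemistry, with Cell Ranger 8.0.0 in the file headers, while the submitters' notes list Cell Ranger 10.0.0, STAR, Seurat 5.0 and GRCm39. The counts were read with Python 3.11.15, NumPy 2.4.6, pandas 2.3.3, SciPy 1.17.1, scanpy 1.11.5 and anndata 0.12.19, and drawn with matplotlib 3.10.9. Members, comparison groups and calls were defined as in the report, with groups of at least 50 cells in each library used for comparisons within libraries and no such minimum between libraries. Genes of the rule and of the mesothelial gate, and between libraries *Xist* and Y-linked genes, were left out of the counts of called genes. Cells were thinned to 2500 UMIs by drawing without replacement (seed 0), for shares of cells and spread. The call rule was tested on simulated data that held 200 genes of known change. Named genes are those of 29 lists (526 genes), other genes whose value the text gives in a comparison, and at most 10 further genes per comparison and direction, by the largest log2 ratio among called genes, leaving out rule, gate, *Xist*, Y-linked, mitochondrial and ribosomal protein genes and models named Gm or Rik; the own values of 4 genes are not reported here. Members and lists were chosen with earlier results of these data known, and the 6 comparisons and their alternatives before the data were examined, except where the text says otherwise. Alternatives changed the gene and cell limits, the pseudocount, the summing over cells, the doublets and the libraries used. Tests were left out because each population has 1 library.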

Additional observations from a re-analysis of the deposited data

Results flagged for a closer look

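Among genes called in both comparisons of eGFP+ with eGFP neg members, 4 moved in opposite directions at tdTomato neg and at tdTomato+, which is why they are listed; the difference was not tested. The log2 ratios were 4.92 and -7.24 for *Igkc*, 4.50 and -7.37 for *Ighm* and 4.23 and -6.54 for *Jchain*, which encode chains of secreted immunoglobulin, and 1.02 and -1.40 for *Gm13889*, a gene outside the naming rule and chosen after its values were seen. In the order of libraries used above, *Igkc* was at 78.1, 1418, 8.36 and 2402 CPM, *Ighm* at 7.22, 337, 1.04 and 184.6 CPM, and *Jchain* at 4.79, 92.0, 0 and 107.6 CPM. The *Ighm* value of the tdTomato+ eGFP+ library is 1 UMI, and the *Jchain* value of 0 lies under the floor of 3.13 CPM, so that their ratios depend on the pseudocount. In 5 cells lay 93.0%, 99.3%, 62.5% and 99.8% of the *Igkc* UMIs. *Gm13889* was at 22.2, 21.0, 7.31 and 46.0 CPM, from 310, 100, 7 and 123 UMIs.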

How the results depend on the processing

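Of 306 alternative values of member shares and gene counts, 214 stayed within the interval of the share or within 1.5 times the count, and 92 did not. Of 11028 alternative log2 ratios of named genes, 9824 kept their call, 1145 kept their sign without the call and 59 changed sign. The mitochondrial limit of 5% and the removal of the cells with the highest Scrublet scores moved no share or count past these limits and changed the sign of no named gene, nor did leaving out barcodes found in more than 1 library. Of the alternatives below, those with members of 8 or more matrix genes, the thinned rule, the removal of cells with immunoglobulin, melanoma, immune or mesothelial genes or with barcodes found in more than 1 library, the leaving out of libraries in the *Pi16*-panel comparison, and all of the *Xist*-only against Y-only comparison were chosen after seeing the data. The cause of the changes was not tested, except where fewer genes, cells or libraries entered by construction.

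With at least 3 matrix genes members were 16.6% of kept cells (23%, 16.0%, 14.3% and 6.21% in the order of libraries used above), with at least 5 10.1% (15.7%, 6.76%, 6.06% and 3.59%), and with no cycle gene allowed 9.62% (14.4%, 7.44%, 6.63% and 3.30%). Among cells with *Xist* and no Y-linked UMI the shares were 12.2% overall and 21.0%, 6.82% and 6.11% in the first 3 libraries, among cells with a Y-linked UMI and no *Xist* 14.8% (20.1%, 18.0%, 21.2% and 6.00%), and under the rule after thinning 12.2% (21.5%, 6.66%, 4.75% and 3.67%). In each of these settings the tdTomato neg eGFP+ share was the lowest. The tdTomato neg eGFP neg share was the highest except among cells with a Y-linked UMI, where the tdTomato+ eGFP+ share, from 42 members, was higher by little.

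Asking for a mean of at least 1 CPM, which admits more genes, gave higher and lower counts of 1127 and 815 against mesothelial-marker cells, 535 and 70 for cycling cells, 800 and 743 for *Pi16*-panel cells, 518 and 190 for tdTomato+ eGFP neg against tdTomato neg eGFP neg members, 298 and 290 for tdTomato neg eGFP+ against tdTomato neg eGFP neg, 422 and 1002 for tdTomato+ eGFP+ against tdTomato+ eGFP neg, and 240 and 177 for *Xist*-only against Y-only members. Asking for at least 50 CPM gave 233 and 143, 64 and 8, 155 and 99, 91 and 20, 32 and 28, 1 and 34, and 25 and 18 in the same order.

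With at least 3 matrix genes 123 genes were lower in tdTomato+ eGFP neg than in tdTomato neg eGFP neg members, 6 were higher and 123 lower in tdTomato+ eGFP+ than in tdTomato+ eGFP neg members, and 44 were higher in *Xist*-only members. With at least 5 these were 38 lower, 100 higher in tdTomato+ eGFP+ members and 120 higher in *Xist*-only members. With no cycle gene 50 genes were lower in cycling cells, 73 higher and 438 lower in tdTomato+ eGFP+ members, and 124 higher and 75 lower in *Xist*-only members. In cells with *Xist* and no Y-linked UMI 54 genes were lower in cycling cells, 163 lower in *Pi16*-panel cells, 131 lower in tdTomato+ eGFP neg members, 161 higher and 147 lower in tdTomato neg eGFP+ members, and 214 higher and 828 lower in tdTomato+ eGFP+ members. In cells with a Y-linked UMI and no *Xist* 193 were higher in tdTomato neg eGFP+ members, and 147 higher and 339 lower in tdTomato+ eGFP+ members. With the mean over cells of each cell's CPM 45 were lower in cycling cells, 467 lower in *Pi16*-panel cells, 162 higher in tdTomato neg eGFP+ and 72 higher in tdTomato+ eGFP+ members. In members with 8 or more matrix genes 113 were lower in tdTomato neg eGFP+ members, 571 higher and 1256 lower in tdTomato+ eGFP+ members, and 142 higher and 78 lower in *Xist*-only members. A pseudocount of 0.1 CPM gave 39 genes higher in tdTomato+ eGFP+ members, and leaving out cells with 2 or more melanoma or immune genes gave 31.

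Leaving out each library in turn, the counts ran from 570 to 614 higher and from 388 to 467 lower against mesothelial-marker cells, and from 291 to 313 higher and from 25 to 35 lower in cycling cells. In *Pi16*-panel cells they ran from 334 to 571 higher and from 211 to 470 lower, and in *Xist*-only members from 97 to 100 higher and from 52 to 76 lower. The highest lower counts, 470 and 76, came without the tdTomato neg eGFP neg library.

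Among the named genes of each comparison, log2 ratios that changed sign were these, each with its value in all cells first. Against mesothelial-marker cells, *Eln* went from -1.41 to 0.04 and *Ch25h* from 1.19 to -0.06 in *Xist*-only cells, and *Ereg* from 1.51 to -0.03 in members with 8 or more matrix genes. In cycling cells, *Areg* went from -1.27 to 1.96 in *Xist*-only cells and to 0.94 with 8 or more matrix genes, *Sfrp4* from -1.05 to 0.01 in Y-only cells, *Cxcl13* from -1.06 to 0.19 with 8 or more matrix genes, and *Ighm* from -1.64 to 0.10 without cells with 10 or more immunoglobulin UMIs. In *Pi16*-panel cells, in *Xist*-only cells of the tdTomato neg eGFP neg library, *Col6a5* went from -1.53 to 0.14 and *Ighm* from -5.31 to 0.73; *Cdh2* went from -1.35 to 0.90 with 8 or more matrix genes, and *Ighm* to 0.04 without immunoglobulin-rich cells.

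Between tdTomato+ eGFP neg and tdTomato neg eGFP neg members, with 8 or more matrix genes, *Col4a6* went from 1.66 to -0.18, *Ccn3* from 1.69 to -1.18, *Timp3* from 1.21 to -0.17, *Ccl4* from 1.67 to -1.98, *Ch25h* from 1.21 to -0.38, *Il34* from 1.03 to -0.33, *Tcf21* from -1.12 to 0.28, *Cdh2* from 1.86 to -0.41, *Cdkn2a* from 1.54 to -1.13, *Cdkn2b* from 1.58 to -0.05, *Kcnq5* from 2.90 to -1.77, *Clec3b* from -1.12 to 0.09, *Lyz2* from 1.97 to -0.02 and *Ctla2a* from 2.85 to -1.32. *Csmd1* went from 2.70 to -1.74 in *Xist*-only cells, *Jchain* from 4.01 to -1.25 with no cycle gene, and *Ccl4* to -1.0 without cells with melanoma or immune genes.

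Between tdTomato neg eGFP+ and tdTomato neg eGFP neg members, *Cxcl13* went from -1.23 to 0.17 with at least 3 matrix genes, and *Il11* from 2.26 to -0.29 with at least 5 and -0.27 in Y-only cells. In *Xist*-only cells *Col6a5* went from 1.67 to -2.39, *Igkc* from 4.92 to -3.03, *Ighm* from 4.50 to -0.29, *Areg* from 3.12 to -2.57 and *Csmd1* from 2.66 to -3.28. With 8 or more matrix genes *Sema3a* went from 1.62 to -0.46, *Tcf21* from -1.20 to 0.03, *Cdh2* from 1.37 to -0.85, *Jchain* from 4.23 to -2.31, *Areg* to -1.09 and *Cryaa* from 2.28 to -0.05. Without immunoglobulin-rich cells *Igkc* was at -0.42 and *Ighm* at -0.25, and without cells with melanoma or immune genes *Ighm* was at -0.38.

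Between tdTomato+ eGFP+ and tdTomato+ eGFP neg members, *Angptl7* (3.73) and *Hal* (1.89) went to -1.38 and -1.38 with at least 5 matrix genes, to -1.83 and -1.83 in *Xist*-only cells and to -0.28 and -0.51 without cells that also had 4 or more mesothelial genes. *Hal* was at -0.21 in Y-only cells and -1.03 with 8 or more matrix genes, *Nup43* (1.10) and *Mpo* (1.10) at -0.45 and -0.22 in Y-only cells, and *Ddr1* (-1.01) and *Pak3* (1.37) at 0.11 and -2.05 with 8 or more matrix genes. Between *Xist*-only and Y-only members *Tnfsf11* went from 1.05 to -0.20 with 8 or more matrix genes.

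Cells with a Y-linked UMI gave no *Pi16*-panel comparison, since no library held 50 cells on each side, and no library was left out where only 2 were compared. In *Xist*-only cells the mesothelial-marker comparison rested on 2 libraries and the *Pi16*-panel comparison on 1. Between populations no paired analysis was possible because the labels name no animal behind any library, while groups within libraries were compared library by library. Depth limits the tdTomato+ eGFP+ library most, where 3 counts in members come to 3.13 CPM. With 1 library per population, a difference between populations cannot be told apart from a difference between libraries, and how often a cell passes the rule can change with its depth.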
